A study of Mus musculus with 7 samples.

Results

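RLIM is a RING-type E3 ubiquitin ligase that was first known as a binding partner of LIM domain complexes. This account describes the RNA of 10 genes whose proteins bind RLIM, belong to the LIM and SIN3 complexes that it binds, or are its substrates, namely *Ldb1*, *Ssbp2*, *Ssbp3*, *Ssbp4*, *Sin3a*, *Hdac2*, *Lhx2*, *Lmo4*, *Terf1* and *Smurf2*, out of the 19719 genes listed in the table. The genes were chosen by symbol from what is known of RLIM, with earlier results of these data known, and each symbol matched 1 listed gene. RNA of total testis had been sequenced from 3 control males (fl/Y, labelled WT) and 4 males labelled Rlim-KO, in which a floxed *Rlim* allele was deleted by Sox2-Cre (cKO/Y Sox2-Cre, written cKO/Y here). Per the labels the strain was C57BL/6, and per the study the animals were littermates of 8 weeks. Both genotypes carried the floxed allele, and the Cre transgene is driven by *Sox2* control sequences that act in the early epiblast, so that the deletion was systemic and not limited to germ cells. The controls are not described as carrying Cre. The labels also give 2 batches without saying what a batch was. Batch 2 held fl/Y replicates 1 and 2 with cKO/Y replicates 1 and 2, and batch 1 held fl/Y replicate 3 with cKO/Y replicates 3 and 4.

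LDB1, also called CLIM2, is a dimerizing cofactor that bridges the LIM domains of LIM homeodomain factors and LIM-only proteins on chromatin. RLIM adds ubiquitin to LDB1 and marks it for the proteasome, while SSBP proteins bind LDB1 and shield it. RLIM can also recruit the SIN3A corepressor with its histone deacetylases, and its other substrates include the telomere protein TRF1 (encoded by *Terf1*) and the SMAD ligase SMURF2. These relations act on proteins, whereas the values here are RNA levels of a whole organ. In such RNA, fewer cells of a type and less RNA per cell cannot be told apart.

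Between 2822168 and 8633399 reads per library fell in listed genes. Levels are given as CPM, a read count relative to a library size that the authors had scaled. A gene with no read in a library could still be present at up to 0.301 to 0.945 CPM, the value of 3 reads, as far as counting error goes. *Rlim* itself was at 99.5, 70.7 and 61.5 CPM in fl/Y replicates 1 to 3 and at 32.6, 35.7, 21.7 and 20.7 CPM in cKO/Y replicates 1 to 4, so that every cKO/Y library was below every control, as labelled. Testis markers were present in all libraries: the summed level of 8 genes of elongating spermatids was 6424.0 to 12032.3 CPM, of 8 genes of Sertoli cells 250.2 to 317.9 CPM and of 8 genes of Leydig cells 391.7 to 759.6 CPM. Of 5 epididymis markers 1 was listed, at 0 to 2.83 CPM. In limma, 0 of the listed markers of 11 cell types passed an adjusted p of 0.05 between genotypes. Of all genes tested only 0.00515% passed, which is *Rlim* alone, so this count does not show that the cell types were alike.

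The 3 SSBP genes are close paralogues, and reads of 35 bases, sequenced in pairs per the study, have to tell them apart. The shared words given below are those of single reads and take no account of the pairs. Over the whole coding sequence, *Ssbp2* and *Ssbp3* were identical at 75.5% of 1077 aligned bases, *Ssbp2* and *Ssbp4* at 69.7% and *Ssbp3* and *Ssbp4* at 72.5%. The longest run of identical bases in these 3 alignments was 20. A stretch of 120 bases near the start of each coding sequence is shown because it codes for part of the conserved amino-terminal region through which SSBP proteins bind LDB1. It was taken from GENCODE M21 transcripts (GRCm38), from coding base 61 in *Ssbp2* and base 55 in the other 2 genes, and capitals mark positions at which the 3 genes are not all the same.
Ssbp2: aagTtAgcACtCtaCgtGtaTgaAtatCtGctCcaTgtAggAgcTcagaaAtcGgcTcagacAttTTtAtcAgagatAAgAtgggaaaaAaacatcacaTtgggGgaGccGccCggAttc
Ssbp3: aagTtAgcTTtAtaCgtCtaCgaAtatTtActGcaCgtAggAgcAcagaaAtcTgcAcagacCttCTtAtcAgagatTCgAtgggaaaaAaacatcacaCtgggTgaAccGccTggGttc
Ssbp4: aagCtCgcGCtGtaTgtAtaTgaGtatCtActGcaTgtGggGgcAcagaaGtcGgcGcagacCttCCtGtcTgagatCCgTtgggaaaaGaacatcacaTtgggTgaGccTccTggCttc
Of these 120 positions 86 were the same in all 3 genes, and no run shared by all 3 was longer than 9 bases. Of all words of 35 bases in the transcripts of *Ssbp3* and *Ssbp4*, 0% also occurred in transcripts of any other gene. In *Ssbp2* this was 27.1%, mostly through 4833422C13Rik, a gene on the opposite strand whose exons overlap 22.1% of the exon bases of *Ssbp2*. No source used here states that reads were counted by strand, so the *Ssbp2* value may hold reads of that antisense gene or lack reads of the shared exons. That antisense gene is not among the listed genes. For the other members the shared words were 0% to 4.87%. *Ldb1* overlaps exons of *Pprc1* on the opposite strand over 3.84% of its exon bases, and *Sin3a* those of Man2c1os and 2700012I20Rik over 3.96%.

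In control testes the 10 genes covered a wide range of levels. Divided by the length of the exons of each gene, so that genes can be compared, *Smurf2* was highest in fl/Y at 16.0 ± 3.53 CPM per kb (SD, n = 3). *Sin3a* followed at 14.1 ± 1.98, and these neighbours overlapped, with *Smurf2* above *Sin3a* in 3 of 7 libraries. *Hdac2* was at 8.56 ± 1.25 CPM per kb and *Terf1* at 5.93 ± 1.01, and the order *Sin3a*, *Hdac2*, *Terf1*, *Ssbp3* held in 7 of 7 libraries at each step. *Rlim* was at 8.66 ± 2.22 CPM per kb over its annotated exons. The study describes a shorter *Rlim* RNA in testis that lacks most of the 3′ noncoding region, so this value is too low for that RNA and *Rlim* was not placed in the order.

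The genes of the LIM complex were lower than these. *Ssbp3* was at 2.45 ± 0.264 CPM per kb in fl/Y (SD, n = 3), *Ssbp4* at 2.03 ± 0.565, *Lhx2* at 1.83 ± 0.275, *Lmo4* at 1.26 ± 0.298, *Ldb1* at 0.943 ± 0.146 and *Ssbp2* at 0.833 ± 0.213. Every pair of neighbours among these genes overlapped between the fl/Y libraries. Genes farther apart did not all overlap, since *Ssbp3*, at 2.17 to 2.7 CPM per kb, was above *Lmo4* (1.05 to 1.6), *Ldb1* (0.806 to 1.1) and *Ssbp2* (0.607 to 1.03) in every fl/Y library. With the longest transcript as the length, *Ssbp2* stood above *Ldb1*, at 1.68 against 1.39 CPM per kb. The listed coordinates of *Ldb1* differ from those in GENCODE M21, from which the lengths came, so its level per kb is less certain. Percentiles among the 19400 genes tested were taken from the mean CPM of all 7 libraries, not divided by length, which places long genes higher. By this *Smurf2* was at percentile 89.9, *Sin3a* at 88.2 and *Ldb1* at 39.3.

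**Figure D1:**
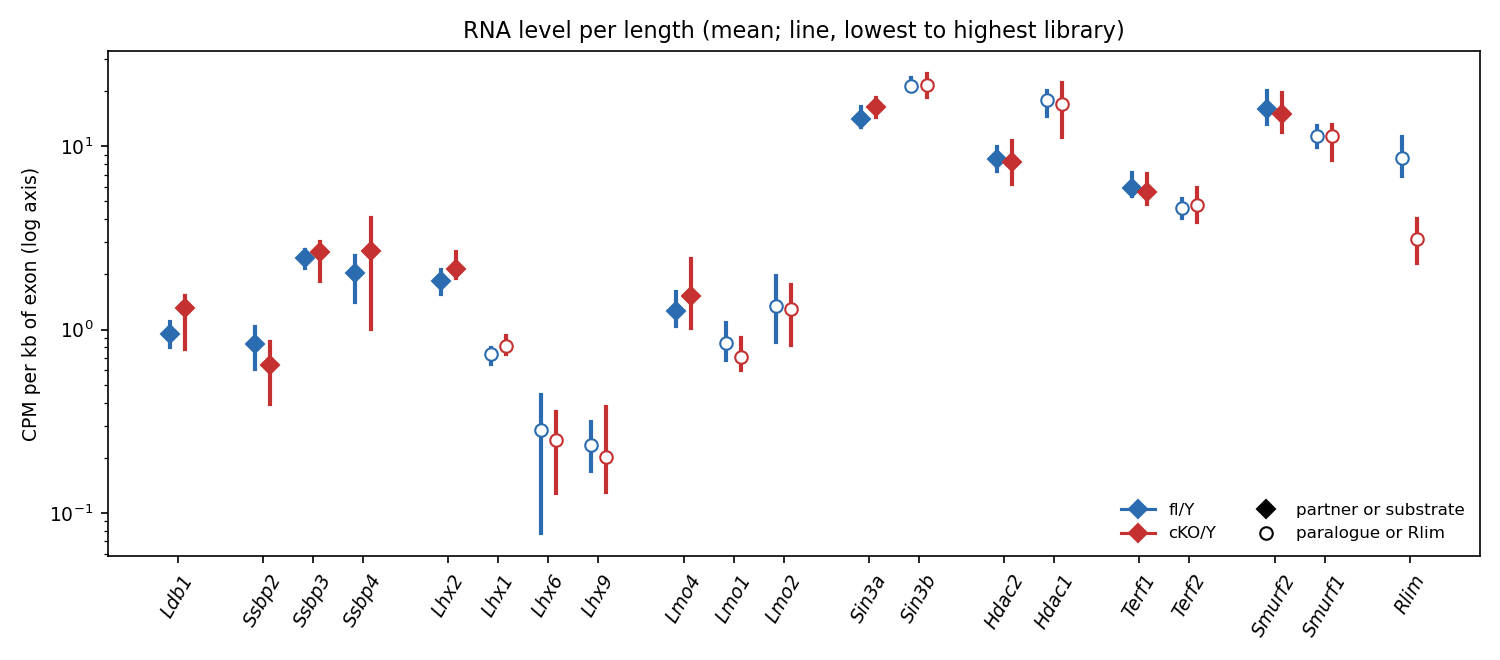
RNA level in CPM per kb of exon (log axis) of the 10 genes (diamonds), their listed paralogues and Rlim (open circles) in fl/Y (blue) and cKO/Y (red) testes, with lines from the lowest to the highest library of 3 or 4. Smurf2, Sin3a and Hdac2 lie above the LIM complex genes, and the Rlim lines are apart between genotypes (means of 8.66 in fl/Y and 3.1 in cKO/Y), while its height beside other genes rests on the full exon length and understates a shorter testis RNA.

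Within their families, the listed members differed in which paralogue was most abundant. *Sin3b*, the other SIN3 scaffold, was above *Sin3a* in 7 of 7 libraries and held 60.2% ± 4.85 of the SIN3 level per kb in fl/Y and 56.6% ± 2.31 in cKO/Y (SD, n = 3 and 4). *Hdac1* was above *Hdac2* in 7 of 7 libraries, with *Hdac2* at 32.4% ± 1.52 of the pair in fl/Y and 33.1% ± 5.44 in cKO/Y. With the longest transcript as the length, *Sin3b* held 72.2% and 69.3%, and *Hdac2* 28.1% and 28.7%, in fl/Y and cKO/Y. Of the *Hdac1* words of 35 bases 39.0% also occur in other genes, mainly in Gm10093, so that the *Hdac1* level is uncertain.

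*Lhx2* held 59.0% ± 3.87 in fl/Y and 62.9% ± 3.99 in cKO/Y of the level of the 4 LIM homeodomain genes listed, ahead of *Lhx1*, *Lhx6* and *Lhx9* in every library. *Ssbp3* was the most abundant SSBP gene in 5 libraries and *Ssbp4* in 2, and *Ssbp2* held 15.8% ± 3.96 in fl/Y and 11.9% ± 6.40 in cKO/Y. With the longest transcript as the length, *Ssbp3* led in 6 libraries and *Ssbp4* in 1, and *Lhx2* held 63.3% in fl/Y and 67.5% in cKO/Y. *Smurf2* was above *Smurf1* in 6 of 7 libraries, at 58.2% ± 8.20 and 56.4% ± 9.61 of the pair. *Terf1* was above *Terf2*, the gene of the other double-strand telomere binder, in 6 of 7 libraries and in 4 with the longest transcript as the length. *Lmo4*, *Lmo2* and *Lmo1* overlapped, with *Lmo4* highest in 4 libraries and in 6 with the longest transcript as the length. In fl/Y the mean shares of *Lmo4* and *Lmo2* were 36.6% and 38.1%, against 49.2% and 31.1% with that length.

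To ask whether loss of RLIM changed the RNA of its partners and substrates, cKO/Y and fl/Y testes were compared by limma on log2(CPM + 0.5) with the batch as a covariate, and p-values were adjusted by Benjamini-Hochberg over all genes tested. All 10 genes passed the filter on low values. None was called higher or lower. That does not show that none changed, since the intervals given below ran down to 0.513-fold (*Ssbp2*) and up to 1.97-fold (*Ldb1*). In limma, 0 of 10 passed an adjusted p of 0.05, beside 0.00515% of all genes tested, which is *Rlim* alone. At an unadjusted p under 0.05 the count was also 0 of 10, against 2.58% of all genes (1.37% lower and 1.22% higher), and edgeR and DESeq2 on the recovered reads gave 0 of 10 at either threshold. The libraries of both genotypes overlapped for all 10, so that 0 of 10 were free of overlap, against 2.92% of all genes (1.59% lower and 1.34% higher). Of the log2 fold changes 6 were above and 4 below 0, with a median of 0.086 beside -0.0055 over all genes tested. *Rlim* had a log2 fold change of -1.38 (SE 0.16, adjusted p = 0.0087 from limma), with -1.52 in batch 1 and -1.29 in batch 2. Its adjusted p from limma was 0.154 without fl/Y replicate 1 and 0.634 without fl/Y replicate 3, at log2 fold changes of -1.28 and -1.29. The latter fold change is that of batch 2, since fl/Y replicate 3 is the single control of batch 1.

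**Figure D2:**
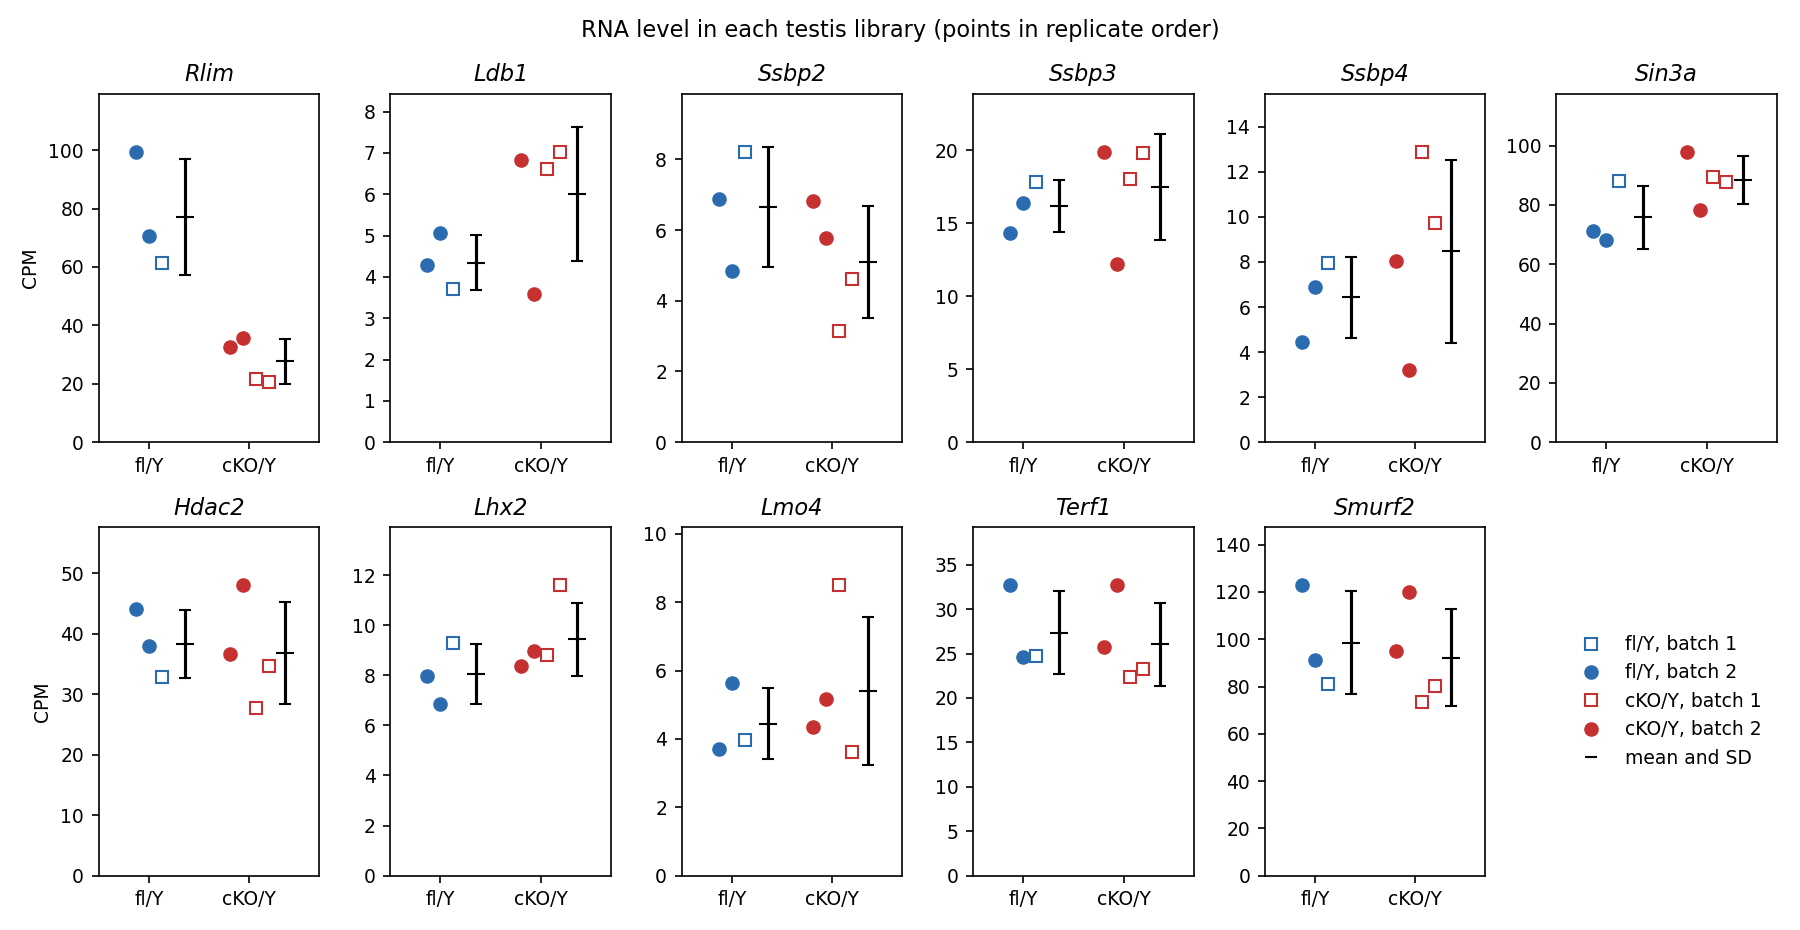
CPM of Rlim and of the 10 genes in each library, from fl/Y (blue) and cKO/Y (red) testes, with batch 1 as open squares and batch 2 as filled circles, and black bars showing the mean ± SD of each genotype. Among these panels only that of Rlim has no overlap between genotypes, and for Ldb1 3 of 4 cKO/Y points lie above all fl/Y points while the remaining point is the lowest of the 7.

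*Ldb1* (ENSMUSG00000025223, chr19:46032593-46045214 of GRCm38, minus strand, as listed) had the largest fitted rise of the 10. It was at 4.28, 5.05 and 3.71 CPM in fl/Y replicates 1 to 3 and at 6.82, 3.59, 6.61 and 7.03 CPM in cKO/Y replicates 1 to 4. Of the cKO/Y libraries 3 were thus above every control, and cKO/Y replicate 2 was below all of them. The means were 4.35 ± 0.67 (SD, n = 3) and 6.01 ± 1.63 CPM (SD, n = 4). The log2 fold change was 0.37 (SE 0.29, adjusted p = 1 from limma), with a 95% interval of -0.24 to 0.98 on the log2 scale, or 0.849-fold to 1.97-fold. Without cKO/Y replicate 2 it was 0.65, at an unadjusted p of 0.0298 and an adjusted p of 0.785 from limma, and without fl/Y replicate 3 it was 0.09. Batch 1, which has a single control, gave 0.80, and batch 2 gave 0.09. The value without fl/Y replicate 3 is that of batch 2, since this library is the control of batch 1. These levels rest on 14 to 70 reads per library, and counting error alone gives an SD of 0.966 CPM in fl/Y and 1.19 CPM in cKO/Y. The spread of the controls was no larger than that.

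*Ssbp2* (ENSMUSG00000003992, chr13:91460283-91703429, plus strand) went the other way. It was at 6.88, 4.85 and 8.22 CPM in fl/Y and at 6.82, 5.78, 3.15 and 4.62 CPM in cKO/Y libraries, in replicate order. The lowest values were those of both cKO/Y libraries of batch 1, and the highest was that of the control of batch 1. The log2 fold change was -0.34 (SE 0.29, 95% interval -0.96 to 0.28, adjusted p = 1 from limma). It was -1.01 within batch 1, which has a single control, and 0.11 within batch 2. The difference between the batches in this effect was -1.12 (SE 0.55, unadjusted p = 0.0614 and adjusted p = 1 from the interaction term of limma). The transgene name of the common Sox2-Cre line places it in *Edil3*, on chromosome 13 from 88821472 to 89323223 in GENCODE M21, and *Ssbp2* begins 2.14 Mb beyond that gene. No difference was called for *Ssbp2*, and for any that there may be, transgene-linked DNA and loss of RLIM cannot be told apart. The levels of *Ssbp2* rest on 10 to 46 reads per library. Counting error alone gives an SD of 1.22 CPM in fl/Y and 1.09 CPM in cKO/Y.

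*Ssbp3* (chr4:106910701-107049694, plus strand), the most read SSBP gene, was at 14.3, 16.4 and 17.8 CPM in fl/Y and at 19.9, 12.2, 18.0 and 19.8 CPM in cKO/Y. Of the cKO/Y libraries 3 were above every control, the nearest at 18.0 against 17.8 CPM, and cKO/Y replicate 2 was the lowest of the 7. Counting error alone gives an SD of 2.01 CPM in cKO/Y, more than that margin. Its log2 fold change was 0.05 (SE 0.20, 95% interval -0.38 to 0.48, adjusted p = 1 from limma). It was 0.22 without cKO/Y replicate 2 and -0.12 without cKO/Y replicate 1. *Ssbp4* (chr8:70597490-70608872, minus strand) was at 4.46, 6.87 and 7.96 CPM in fl/Y and at 8.06, 3.19, 12.9 and 9.74 CPM in cKO/Y. The same 3 libraries were above the controls, the nearest at 8.06 against 7.96 CPM, and the same library was lowest. Here counting error gives an SD of 1.43 CPM in cKO/Y. The share of all genes with this pattern, also seen for *Ldb1*, was not counted, so no joint rise is read from it. The fitted change of *Ssbp4* was small beside its error. Its log2 fold change was 0.13 (SE 0.30, 95% interval -0.52 to 0.77, adjusted p = 1 from limma). It was 0.49 without cKO/Y replicate 2, but -0.12 without cKO/Y replicate 1. Batch 2 by itself gave -0.10. Leaving out fl/Y replicate 3, the single control of batch 1, gives that same estimate and is not a separate check. The 2 ends of the cKO/Y range of *Ssbp4*, 3.19 and 12.9 CPM, stood for 16 and 41 reads.

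The LIM domain proteins that LDB1 binds were represented by *Lhx2* and *Lmo4*. *Lhx2* (chr2:38339281-38369733, plus strand) encodes a LIM homeodomain factor of forebrain, eye and hair follicle development. It was at 7.99, 6.87 and 9.28 CPM in fl/Y and at 8.37, 8.97, 8.82 and 11.6 CPM in cKO/Y, so that a single cKO/Y library lay above the controls. The log2 fold change was 0.18 (SE 0.22, 95% interval -0.29 to 0.64, adjusted p = 1 from limma). *Lmo4* (chr3:144188530-144205220, minus strand) encodes a LIM-only protein that lacks a homeodomain. It was at 3.72, 5.65 and 3.98 CPM in fl/Y and at 4.34, 5.18, 8.5 and 3.61 CPM in cKO/Y, and cKO/Y replicate 3 alone was above the control range. The log2 fold change was 0.20 (SE 0.31, 95% interval -0.45 to 0.86, adjusted p = 1 from limma), and -0.013 without that library.

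*Sin3a* (chr9:57072040-57128366, plus strand), the scaffold on which the corepressor complex is built, was measured with more reads, 284 to 873 per library. It was at 71.2, 68.3 and 88.1 CPM in fl/Y and at 98.0, 78.3, 89.4 and 87.6 CPM in cKO/Y. The highest control, of batch 1, lay among the cKO/Y libraries, whereas in batch 2 both cKO/Y libraries were above both controls. The log2 fold change was 0.20 (SE 0.15, 95% interval -0.11 to 0.51, adjusted p = 1 from limma). The batches gave 0.33 (batch 2) and 0.01 (batch 1), and leaving out a library gave 0.09 (cKO/Y replicate 1) to 0.33 (fl/Y replicate 3). The last value is that of batch 2 again, since fl/Y replicate 3 is the single control of batch 1. *Hdac2* (chr10:36974544-37001889, plus strand), a catalytic subunit of that complex, was at 44.1, 38.0 and 32.9 CPM in fl/Y and at 36.6, 48.0, 27.7 and 34.6 CPM in cKO/Y. The genotypes overlapped over most of their range, and the log2 fold change was -0.01 (SE 0.17, 95% interval -0.37 to 0.34, adjusted p = 1 from limma).

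Both other substrates gave narrow intervals around 0. *Terf1* (chr1:15805646-15844052, plus strand), whose protein TRF1 binds telomeric repeats and limits telomere length, was at 32.7, 24.6 and 24.7 CPM in fl/Y and at 25.7, 32.7, 22.4 and 23.3 CPM in cKO/Y. The highest library of each genotype reached 32.7 CPM, and the log2 fold change was -0.03 (SE 0.18, 95% interval 0.758-fold to 1.27-fold, adjusted p = 1 from limma). *Smurf2* (chr11:106820066-106920715, minus strand), whose protein is a HECT ligase for SMAD proteins and TGF-beta receptors, was at 122.9, 91.3 and 81.2 CPM in fl/Y and at 94.9, 119.8, 73.4 and 80.4 CPM in cKO/Y. Its log2 fold change was -0.03 (SE 0.15, 95% interval 0.782-fold to 1.23-fold, adjusted p = 1 from limma). For *Smurf2*, *Terf1* and *Hdac2* the 95% intervals ran from between 0.758-fold and 0.782-fold up to between 1.23-fold and 1.27-fold, whereas that of *Ldb1* reached 1.97-fold and that of *Ssbp2* went down to 0.513-fold.

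**Figure D3:**
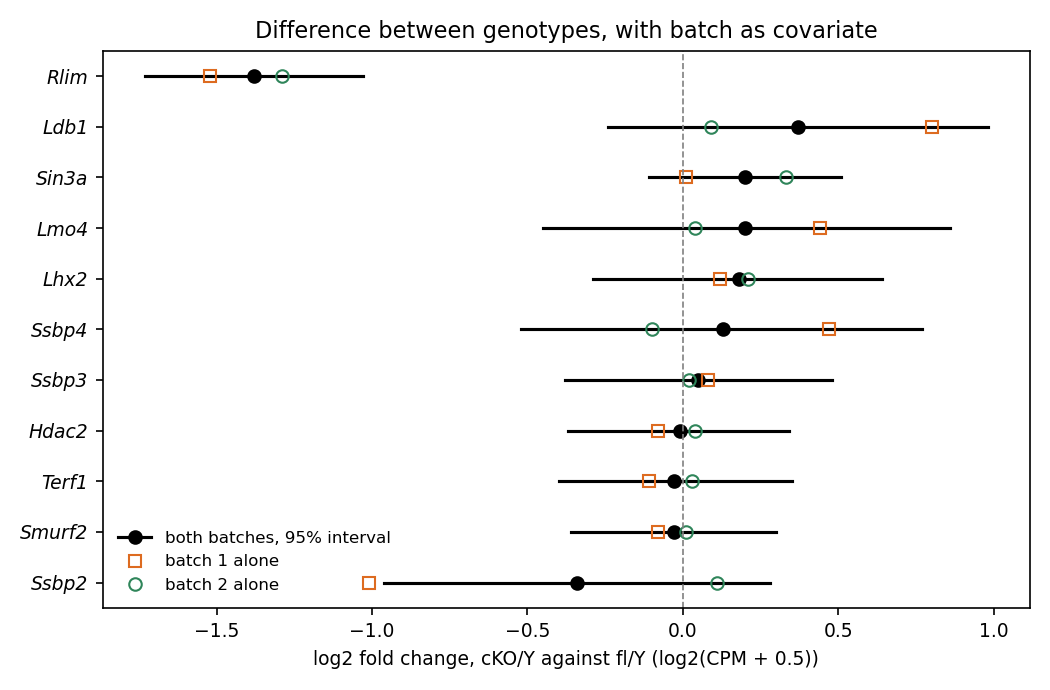
Log2 fold change of Rlim and of the 10 genes between cKO/Y and fl/Y testes from limma with batch as a covariate (black, lines are 95% intervals), with the values of batch 1 alone (orange squares) and batch 2 alone (green circles). The interval of Rlim, -1.73 to -1.03, lies below 0 and those of the 10 genes include 0, and the batches lie farthest apart for Ssbp2, at -1.01 and 0.11.

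Several of the genes were high or low in the same libraries. *Smurf2*, *Terf1* and *Hdac2* each had their 2 highest values in the same libraries, fl/Y replicate 1 and cKO/Y replicate 2, both of batch 2. In these libraries *Smurf2* was at 122.9 and 119.8 CPM, against 73.4 to 94.9 CPM in the other 5. *Ssbp4* had its 2 lowest values there, at 4.46 and 3.19 CPM against 6.87 to 12.9 CPM. *Ssbp3* was likewise lowest there, at 14.3 and 12.2 CPM against 16.4 to 19.9 CPM.

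The summed level of 8 spermatocyte markers, none of them at 0 in any library, was highest in the same pair, at 1896.8 CPM in fl/Y replicate 1 and 2113.4 CPM in cKO/Y replicate 2, against 802.7 to 1625.9 CPM elsewhere. That of 8 elongating spermatid markers was lowest there, at 7071.8 and 6424.0 CPM against 8024.4 to 12032.3 CPM. The other marker lists did not all set that pair apart. Spermatogonia markers were lowest there, at 71.9 and 58.6 CPM against 76.6 to 102.0 CPM. Round spermatid markers, at 804.0 and 906.7 CPM against 820.7 to 920.0 CPM, were not. Nor were Sertoli cell markers, at 291.5 and 250.2 CPM against 262.7 to 317.9 CPM. Mitochondrial genes took 21.4% and 19.4% of reads in that pair and 5.88% to 19.0% in the others. A further library stood apart, cKO/Y replicate 1, in which CT010467.1 took 19.3% of reads and the scaling factor was the lowest, at 0.820. Without it the log2 fold changes of *Ssbp3* (-0.12), *Ssbp4* (-0.12), *Hdac2* (0.07), *Terf1* (0.045) and *Smurf2* (0.049) turned sign. The part of these differences in the levels of the 10 genes was not tested. Without fl/Y replicate 1 and cKO/Y replicate 2, *Ldb1* had a log2 fold change of 0.63 and *Ssbp4* one of 0.36 between genotypes, at unadjusted p-values of 0.049 and 0.184 from limma, and 0 of 10 genes passed an adjusted p of 0.05.

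**Figure D4:**
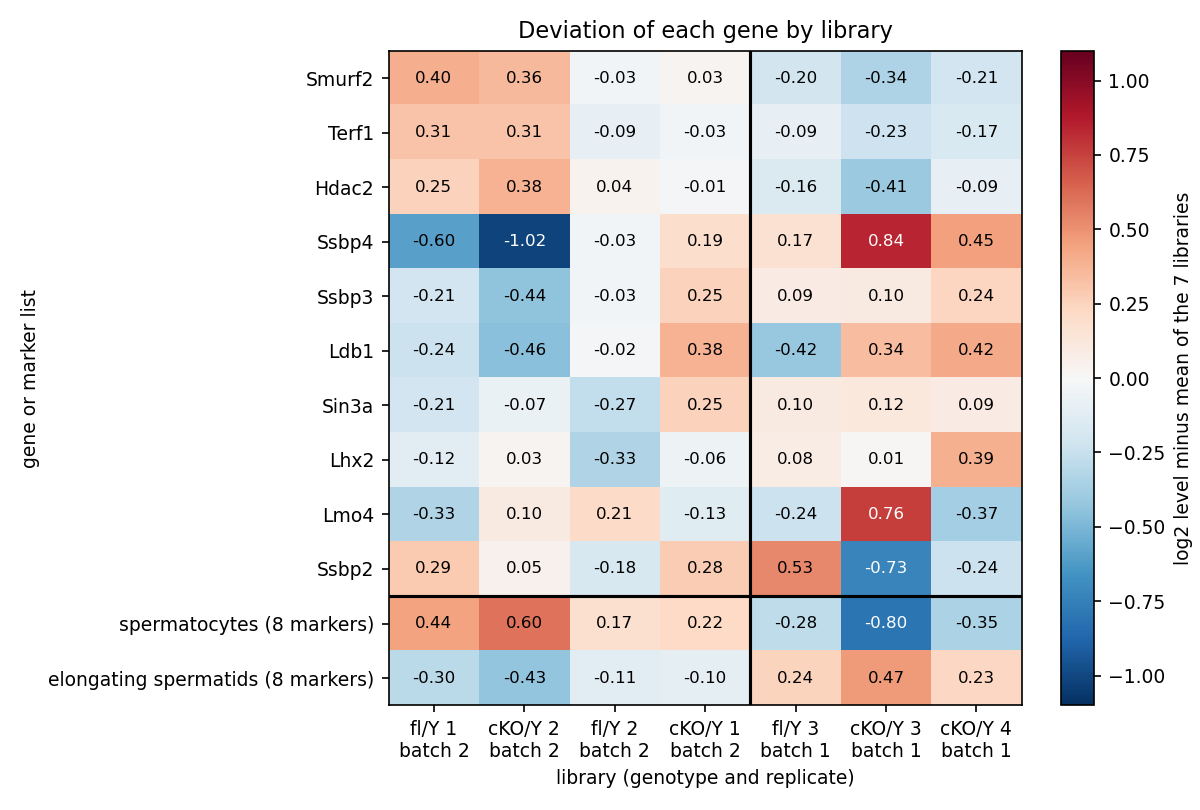
Deviation of each of the 10 genes from its mean over the 7 libraries, in log2(CPM + 0.5), by library (columns; red is above and blue below the mean), and under the horizontal line the same for the log2 summed CPM of 8 spermatocyte and 8 elongating spermatid markers. The columns fl/Y 1 and cKO/Y 2 hold the highest values of Smurf2, Terf1, Hdac2 and spermatocytes and the lowest of Ssbp4, Ssbp3 and elongating spermatids.

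Between batches, with genotype as the covariate, *Smurf2* was lower in batch 1 by a log2 difference of -0.44 (SE 0.15), *Hdac2* by -0.38 (SE 0.17), and *Ssbp4* was higher by 0.83 (SE 0.30). *Smurf2* and *Hdac2* did not overlap between batches, as was the case for 23.6% of all genes. These 3 of 10 genes had an unadjusted p under 0.05 in limma, against 24.8% of all genes, and with adjusted p-values of 0.098, 0.17 and 0.107 in limma 0 of 10 passed, against 7.06% of all genes. edgeR gave the same counts of 3 and 0. The genotype effect differed between batches for 0 of 10 genes at an adjusted p of 0.05 from limma, against 0.0103% of all genes. At an unadjusted p under 0.05 it differed for 0 of 10, against 2.08%, and edgeR gave 0 at both thresholds.

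The genes around these partners were taken from 8 lists, with 73 genes tested of 86 named. The lists include the 10 genes. Of the 73, 0 were called higher and 0 lower at an adjusted p of 0.05 in limma, and 0 had an unadjusted p under 0.05. For 2 of 73 the genotypes did not overlap, against 2.92% of all genes. Of the SIN3 complex, 21 of 22 genes were tested, of which 13 were below and 8 above 0 with a median log2 fold change of -0.023. Its genes with the smallest p after *Sin3a* were *Arid4a*, a subunit with an ARID domain, at 37.4 ± 1.43 CPM in fl/Y and 34.2 ± 5.74 CPM in cKO/Y (SD, n = 3 and 4), and *Suds3*, at 90.3 ± 6.85 and 83.1 ± 11.2 CPM.

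Among 6 other deacetylases of class I and IIa the median was 0.11, and *Hdac9*, which encodes a class IIa enzyme, had the smallest p of the 73 genes of the lists. It was at 9.02 ± 0.91 CPM in fl/Y and 12.3 ± 0.807 CPM in cKO/Y (SD, n = 3 and 4), and every cKO/Y library was above every control, without its passing the test (log2 fold change 0.42, SE 0.20, unadjusted p = 0.0542 and adjusted p = 1 from limma). *Hdac3*, which encodes a class I enzyme, was at 41.2 ± 2.23 and 38.0 ± 4.46 CPM, with a log2 fold change of -0.14 that did not pass. *Hdac7* was at 2.13 ± 1.2 and 3.03 ± 1.52 CPM.

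Of 11 shelterin genes and regulators of TRF1, 5 were below and 6 above 0, with a median of 0.025. *Tinf2*, whose protein TIN2 binds TRF1, was at 26.0, 25.8 and 25.2 CPM in fl/Y and at 28.2, 28.9, 33.1 and 30.6 CPM in cKO/Y, without overlap and without passing the test (log2 fold change 0.21, SE 0.16, unadjusted p = 0.196 and adjusted p = 1 from limma). *Pot1a*, which encodes a single-strand telomere binder, was at 8.62 ± 1.08 and 6.76 ± 1.60 CPM, and *Pinx1* at 8.88 ± 0.746 and 7.67 ± 2.43 CPM.

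Of 21 tested genes of SMURF ligases and TGF-beta or BMP signalling, 13 were below and 8 above 0, with a median of -0.051. *Acvr1*, a type I receptor, was at 3.36 ± 1.14 CPM in fl/Y and 2.49 ± 1.00 CPM in cKO/Y, the BMP-responsive *Smad9* at 2.06 ± 0.666 and 1.24 ± 0.356 CPM, and *Smad2* at 25.7 ± 2.98 and 21.8 ± 1.17 CPM. Their log2 fold changes were -0.52, -0.49 and -0.20, and none of them passed the test.

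Of 12 LIM homeodomain genes 4 were tested and of 4 LIM-only genes 3, with medians of -0.016 and -0.15. *Lhx1* was at 3.01 ± 0.316 and 3.30 ± 0.375 CPM, *Lhx9* at 2.24 ± 0.687 and 1.93 ± 1.12 CPM, *Lmo2* at 2.91 ± 1.22 and 2.81 ± 0.979 CPM and *Lmo1* at 1.32 ± 0.319 and 1.09 ± 0.216 CPM. Further RLIM substrates or partners gave 5 tested genes with a median of -0.088. *Zfp42*, which encodes REX1, the substrate through which RLIM acts on X inactivation, was at 15.8, 11.3 and 14.3 CPM in fl/Y and at 12.7, 10.8, 16.7 and 13.3 CPM in cKO/Y, with overlap of the genotypes (log2 fold change -0.09, SE 0.21, adjusted p = 1 from limma). *Smad7*, whose protein is an inhibitor of TGF-beta signalling, was at 1.96 ± 0.996 and 1.58 ± 0.298 CPM.

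**Figure D5:**
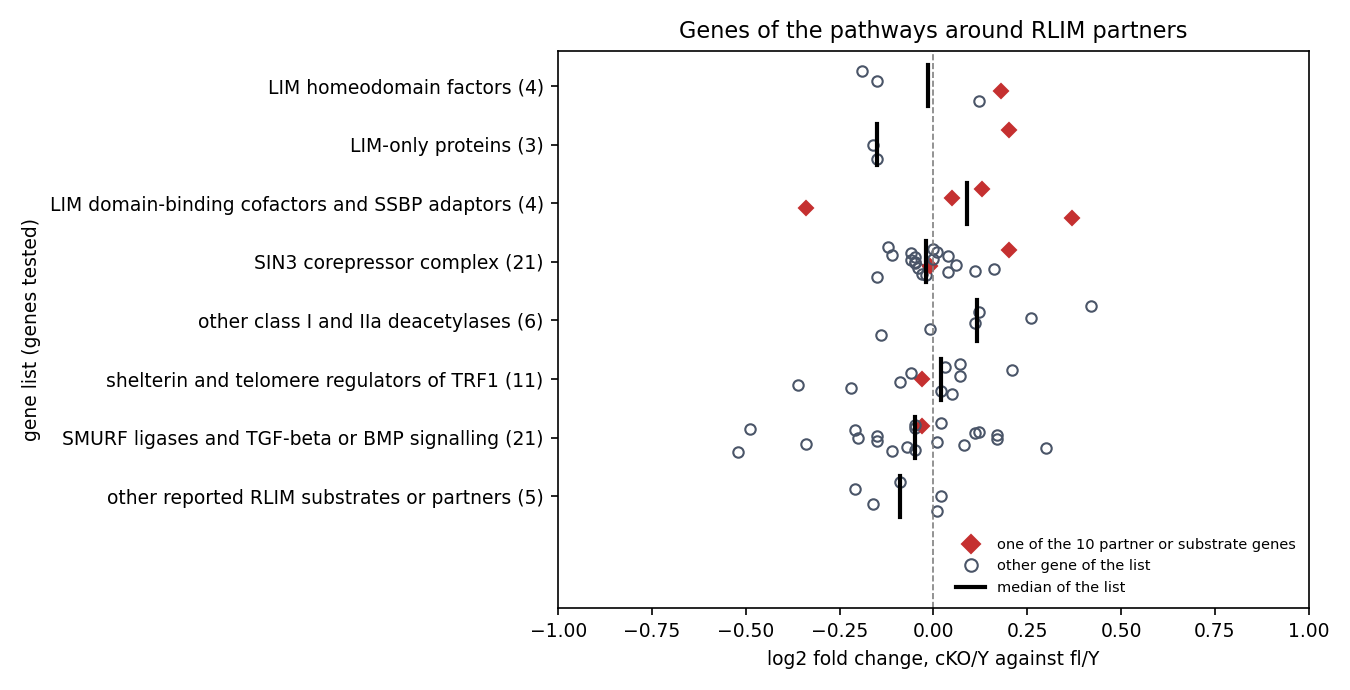
Log2 fold change between cKO/Y and fl/Y testes of each tested gene in 8 lists (rows, with the number tested), with red diamonds for the 10 partner or substrate genes, open circles for other genes and bars for the median of each list. The points lie between -0.52, for Acvr1, and 0.42, for Hdac9, and 0 of them passed an adjusted p of 0.05.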

How the data were processed

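RNA-seq of total testis was analysed for 3 fl/Y and 4 cKO/Y males. The labels name HISAT2 2.1.0, featureCounts, edgeR and the build GRCm38, and the study's methods name other tools for alignment and counting (TopHat and HTSeq). The deposited table holds signal values, namely CPM that the authors obtained with a scaled library size. The scaling equals TMM factors recomputed from recovered reads. Dividing by the value of a single read gave whole numbers for 100% of values in each library, with a tolerance of 0.001 read.

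Of 19719 listed genes, 19400 exceeded 1 CPM in 3 or more libraries and were tested in R 4.3.3 with limma 3.58.1 on log2(CPM + 0.5), with a variance trend and batch as covariate. Fold changes on this scale understate those of low genes. P-values are two-sided, adjusted by Benjamini-Hochberg. Recovered reads were also tested with edgeR 4.0.16 and DESeq2 1.42.0, and the script was tested on simulated data. Exon lengths and shared words of 35 bases, the read length, came from GENCODE M21 with Python 3.11.15. Named genes are the 10, *Rlim*, their paralogues, genes that share exons or words with them and up to 3 genes of each list with the smallest p. The 10 genes and the lists were chosen with earlier results of these data known. The p-values measure the spread between these libraries, and replicate numbers were not treated as pairs.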

Additional observations from a re-analysis of the deposited data

Results flagged for a closer look

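*Ldb1* in cKO/Y replicate 2, at 3.59 CPM (18 reads), stood apart from the other 3 cKO/Y libraries, at 6.61 to 7.03 CPM. The gap took up 0.88 of the range of the 4 libraries, above the limit of 0.829 for 4 values. Such a test marks about 1 in 20 groups by chance, and it was run for 11 genes.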

How the results depend on the processing

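Under 19 alternatives, 0 of 189 log2 fold changes of the 10 genes passed an adjusted p of 0.05 (smallest 0.785), 4 had an unadjusted p under 0.05, and 166 kept their direction. *Ldb1*, *Sin3a* and *Lhx2* kept it in all. In batch 2 alone the sign turned for *Ssbp2* (0.11), *Ssbp4* (-0.10), *Hdac2* (0.036), *Terf1* (0.031) and *Smurf2* (0.010), and for *Hdac2* also by edgeR (0.009) and DESeq2 (0.014). Leaving out each library in turn gave -0.57 to 0.11 for *Ssbp2* (above 0 without fl/Y replicate 3), -0.12 to 0.22 for *Ssbp3* and -0.12 to 0.49 for *Ssbp4* (both lowest without cKO/Y replicate 1), -0.12 to 0.07 for *Hdac2* (highest without cKO/Y replicate 1), -0.013 to 0.38 for *Lmo4* (below 0 without cKO/Y replicate 3), -0.14 to 0.06 for *Terf1* and -0.14 to 0.07 for *Smurf2* (both highest without fl/Y replicate 1). The cause was not tested. *Rlim* stayed between -1.52 and -1.28, but missed an adjusted p of 0.05 without the batch term (-1.47) and in batch 2 alone (-1.29). Of all genes, 0 passed without the batch term or in batch 2 alone, 28 in batch 1 alone, and 0 to 3 when a library was left out (3 without cKO/Y replicate 2). *Lmo4* could not be given under a filter on mean CPM above 5. Without fl/Y replicate 3, the single control of batch 1, the genotype effect rests on batch 2. That fit and batch 2 alone therefore give the same fold change and are not separate checks among the 19 alternatives. Leaving out fl/Y replicate 1 and cKO/Y replicate 2 together was chosen after seeing the data.

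With the replicate number as a block, *Rlim* was at -1.35 (adjusted p = 0.307 from limma), and 0 of all genes and 0 of the 10 passed. Deviations of same-numbered libraries correlated at 0.101, 0.066 and 0.392, and fl/Y replicate 1 correlated best with cKO/Y replicate 2 (0.474), so the numbers were not taken as pairs. The low genes rest on few reads (from 10 for *Ssbp2* and 14 for *Ldb1* and *Lmo4*), which limits what could be detected for them.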
